A study of Rattus norvegicus with 8 samples.

Results

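The CpG-dense stretches of the rat genome that carried little methylation in normal bladder and more in every dimethylarsinic acid-induced urothelial carcinoma (UC) numbered 392. They are 200-base tiles on chromosomes 1 to 20 in which each of the 8 samples had at least 10 measured CpGs, the mean level of the 3 controls was under 5%, and the level was 10% or more in each of the 5 UCs. There were 32980 CpG-dense tiles, of which 392 (1.19%) met the rule, and 28720 of them had a control mean under 5%, of which 392 (1.36%) met it, while 24171 (84.2%) were under 5% in every sample. Among all 1194242 tiles with a measured CpG on these chromosomes, most held too few CpGs to be considered. The level of a tile is the number of C calls divided by the number of C and T calls over its CpGs in 1 sample.

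The samples came from male F344/DuCrj rats that were 10 weeks old when treatment began. For 104 weeks, control rats drank water with 0 ppm dimethylarsinic acid, an organic arsenical, and the UC group drank water with 200 ppm. The 3 controls are labelled bladder urothelium, whereas the methods of the study call them bladder tissue, and the 5 UCs are labelled bladder tumor. The tumours were taken without histological examination, and the sources used here do not say whether they came from 5 different animals, so the p-values below measure only the spread between these samples. The samples used here include neither a tumour of an untreated rat nor treated bladder outside a tumour, so exposure and tumour growth cannot be told apart.

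In mammalian genomes most CpGs are methylated, and the main exceptions are CpG islands, short CpG-rich stretches that often hold the start sites of genes and usually stay free of methylation. Methylation of a promoter island goes along with lasting silence of its gene, and in many cancers a subset of islands gains methylation, often at genes of development that are already silent in the tissue of origin. Reduced representation bisulfite sequencing (RRBS) reads the CpG-rich fragments left by restriction enzymes: bisulfite turns unmethylated cytosine into a base sequenced as T, and methylated cytosine stays C.

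The files held 51434938 to 73836223 calls per sample at 2526077 to 2821347 CpGs, each with at least 3 reads. UC 1 and UC 2 resembled each other closely over the 392 tiles, as did UC 4 and UC 5, while UC 3 had the lowest levels. For this reason the number of tiles is also given without UC 3 (dense in the other 7 samples), which was 778, and with 1 UC of each similar pair, which was 464 with UCs 1, 3 and 4 and 433 with UCs 2, 3 and 5. Leaving out UCs only loosens the rule, so all 392 tiles are among those found in each of these settings by construction. Genes were named by placing RefSeq promoter sequences on the CpG positions of the files through the spacing of their CpGs, or by overlap with the regions listed by the study.

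The promoters of 5 genes are shown because member tiles cover them and because they differ in CpG content. Each runs from 250 bases before to 50 after the start of the gene, 5′ to 3′ on the strand of the gene, from RefSeq on GRCr8, and capitals mark the CpGs measured here within a member tile. The positions are chr5:164003901-164004200 on the minus strand for Disp3, chr6:143582318-143582617 on the plus strand for Ptprn2, chr1:126476025-126476324 on the plus strand for Otud7a, chr12:38753094-38753393 on the minus strand for Lrrc43 and chr8:120154188-120154487 on the plus strand for Trank1.
Disp3: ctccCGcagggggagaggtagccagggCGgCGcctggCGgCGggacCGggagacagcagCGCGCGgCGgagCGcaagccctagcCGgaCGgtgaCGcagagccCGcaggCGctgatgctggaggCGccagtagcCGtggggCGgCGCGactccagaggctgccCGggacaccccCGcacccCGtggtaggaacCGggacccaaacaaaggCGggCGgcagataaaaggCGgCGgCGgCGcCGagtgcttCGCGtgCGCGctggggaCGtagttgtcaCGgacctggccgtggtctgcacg
Ptprn2: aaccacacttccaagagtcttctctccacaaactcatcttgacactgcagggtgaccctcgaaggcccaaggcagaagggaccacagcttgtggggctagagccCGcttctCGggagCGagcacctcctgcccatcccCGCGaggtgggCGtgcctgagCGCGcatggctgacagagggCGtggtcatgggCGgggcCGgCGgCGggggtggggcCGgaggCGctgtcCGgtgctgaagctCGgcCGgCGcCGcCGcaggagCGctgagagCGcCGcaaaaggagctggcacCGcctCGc
Otud7a: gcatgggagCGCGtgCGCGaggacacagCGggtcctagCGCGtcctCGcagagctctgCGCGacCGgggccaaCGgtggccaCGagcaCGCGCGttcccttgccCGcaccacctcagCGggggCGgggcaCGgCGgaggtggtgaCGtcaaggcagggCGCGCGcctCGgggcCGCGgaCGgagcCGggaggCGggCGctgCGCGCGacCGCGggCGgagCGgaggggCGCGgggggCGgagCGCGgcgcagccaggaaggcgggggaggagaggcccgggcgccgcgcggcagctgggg
Lrrc43: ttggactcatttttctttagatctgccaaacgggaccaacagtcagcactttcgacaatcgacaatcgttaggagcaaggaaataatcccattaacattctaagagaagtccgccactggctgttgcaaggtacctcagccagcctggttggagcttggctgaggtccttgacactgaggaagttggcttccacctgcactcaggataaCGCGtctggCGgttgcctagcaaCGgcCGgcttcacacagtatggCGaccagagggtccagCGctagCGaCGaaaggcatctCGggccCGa
Trank1: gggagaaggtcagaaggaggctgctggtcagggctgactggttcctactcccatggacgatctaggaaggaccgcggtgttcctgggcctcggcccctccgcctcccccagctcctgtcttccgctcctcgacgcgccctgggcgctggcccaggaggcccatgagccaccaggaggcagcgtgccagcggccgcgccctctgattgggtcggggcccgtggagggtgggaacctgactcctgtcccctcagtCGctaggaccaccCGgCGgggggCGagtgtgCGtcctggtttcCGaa
The Otud7a window held 51 CpGs and 80.3% G and C, and 44 of its CpGs lay in member tiles. In Disp3 there were 40 CpGs and in Ptprn2 27, of which 38 and 26 lay in member tiles. Lrrc43 was poorer, with 16 CpGs and 53.7% G and C, and its 11 marked CpGs crowd around the start. In Trank1 only the last 6 of 22 CpGs are marked, because its member tiles begin at the start and run into the gene.

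Over the 392 tiles, the median level was 3.17%, 2.30% and 2.15% in controls 1 to 3. In UCs 1 to 5 it was 28.4%, 27.4%, 14.4%, 20.1% and 19.8%. The UC mean exceeded the control mean by a median of 19.7 percentage points, from 9.13 to 67.8 points. These differences follow from the rule and were not tested. Every UC lay above every control in all 392 tiles, which the rule largely fixes, against 15.3% of all CpG-dense tiles and 13.2% of those with a control mean under 5%.

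**Figure D1:**
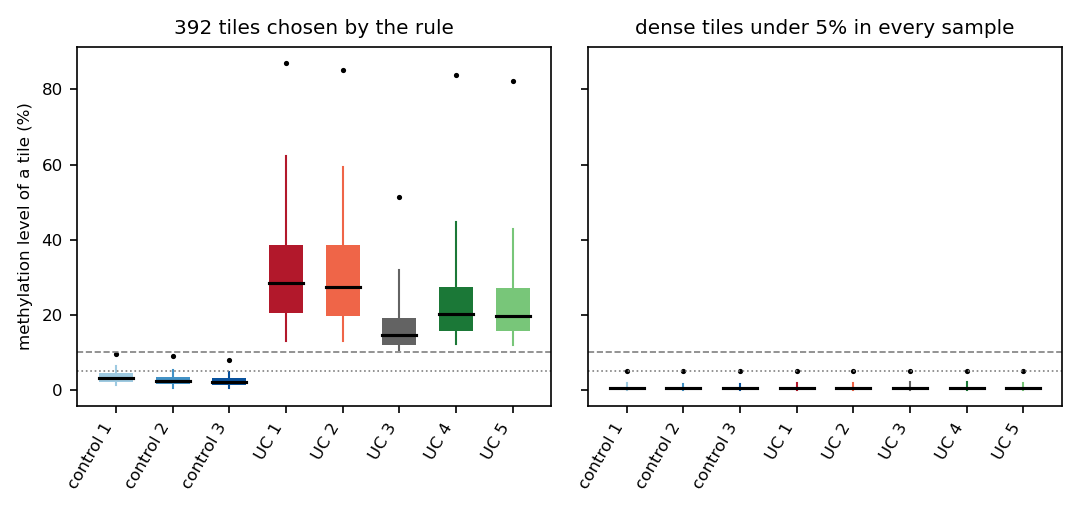
Methylation level of tiles in percent (vertical axis) in each of the 8 samples, for the 392 tiles (left) and for the 24171 dense tiles under 5% in every sample (right). Boxes span the 25th to 75th percentile with the median as a black line, thin lines the 5th to 95th percentile and dots the highest tile. The dotted and dashed lines mark 5% and 10%; the medians of the UCs on the left run from 14.4% in UC 3 to 28.4% in UC 1.

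The gain was partial in most tiles. No tile reached 50% in every UC, 9 reached 30% and 50 reached 20%, while 54 tiles had at least 1 UC at 50% or more. In 256 tiles (65.3%) the lowest UC was under 15%. The samples are bulk tissue, in which methylation of fewer cells and methylation of fewer copies per cell cannot be told apart.

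The depth of the tiles varied widely. The tile with the fewest calls in its shallowest sample had 33, and the median of these lowest values was 366. In all 392 tiles the lower bound of the 95% Wilson interval of the lowest UC was over 5%, and in 219 it was over 10%. The rule required these levels to be 10% or more, so the bounds are given as a description. Such intervals cover counting error only, and CpGs on the same read are not independent.

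The tiles next to the thresholds were much alike on both sides. Just inside, the lowest UC was 10.03% at chr3:499001-499200 and 10.04% at chr15:40390801-40391000, and just outside it was 9.99% at chr18:14304801-14305000 and 9.98% at both chr19:53800401-53800600 and chr18:76836601-76836800. The tile nearest the threshold, chr3:170548401-170548600, had its lowest UC at 10.03% and a control mean of 4.14%. For the control mean, the last tiles inside were at 4.99% (chr3:142386201-142386400), 4.98% (chr15:26445401-26445600) and 4.98% (chr15:108842401-108842600). The first outside were at 5.002% (chr6:77406801-77407000 and chr7:113938001-113938200) and 5.02% (chr15:108896401-108896600), and their lowest UCs were 15.4%, 19.1% and 14.6%.

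Tiles chosen without a given UC show how often that UC had the gain as well. When UC 1 was left out of the choice, 399 tiles were chosen, and 392 of them (98.2%) reached 10% in UC 1, against 6.49% of the 28720 tiles with a control mean under 5%. The share was 94.9% for UC 2 (background 6.36%), 94.9% for UC 4 (5.26%) and 90.7% for UC 5 (4.79%). UC 3, among the tiles dense in all 8 samples, reached 10% in 392 of 768 (51.0%), against 2.56% of the background tiles. The tiles that reached it are the same 392 in each case, so the shares differ only by the number chosen. The background includes these 392, and 84.2% of it was under 5% in every sample.

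The shares of UCs 1, 2, 4 and 5 rest in part on the similar sample that stayed in the choice. With UC 1 and UC 2 left out together, both reached 10% in 392 of 469 tiles (83.6%, background 5.69%). With UC 4 and UC 5 left out, both did so in 392 of 548 (71.5%, background 4.19%). The sets overlap, and no p-value is given for them.

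A control left out of the choice was mostly, but not always, under the 5% that the rule asks of the control mean. Control 1 was under 5% in 314 of 422 tiles (74.4%), control 2 in 346 of 385 (89.9%) and control 3 in 348 of 367 (94.8%). It was under 10% in 99.3%, 99.7% and 99.7% of these tiles. It was not as low as in tiles that stayed unmethylated. The median of the left-out control was 3.37%, 2.36% and 2.11% for controls 1 to 3, against 0.375%, 0.350% and 0.305% in dense tiles where each UC and the mean of the other controls were under 5%. The part of other cell types in these low control levels was not tested.

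The 5 UCs did not gain the tiles to the same level. UC 3 was the lowest UC in 265 of 392 tiles, and its level had a median ratio of 0.614 to the mean of the other UCs. UC 1 or UC 2 was the highest in 292. Both UC 1 and UC 2 lay above UC 4 and UC 5 in 244 tiles, the reverse held in 57, and neither in 91.

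Across the 392 tiles, which share their libraries and the selection, Pearson's r was 0.938 between UC 1 and UC 2 and 0.929 between UC 4 and UC 5. The other pairs of UCs had r from 0.468 to 0.552. The median absolute difference was 2.83 points between UC 1 and UC 2, 2.37 between UC 4 and UC 5 and 8.72 between UC 1 and UC 4.

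**Figure D2:**
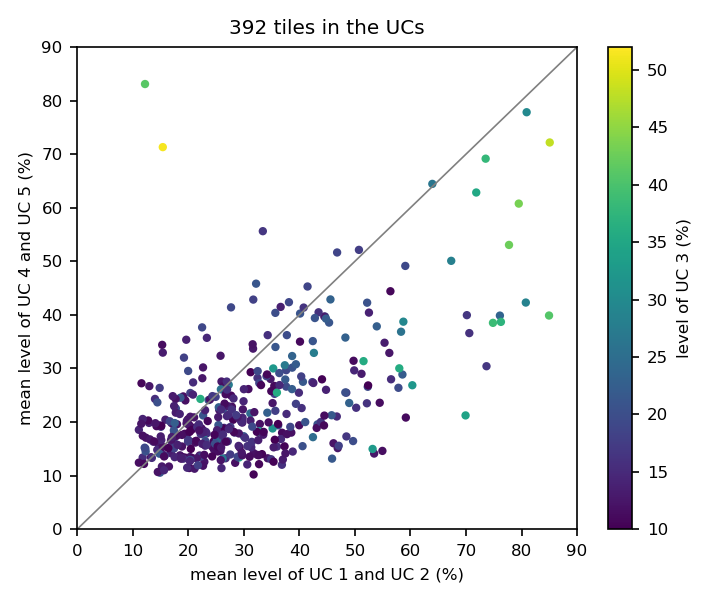
Each point is 1 of the 392 tiles, with the mean level of UC 1 and UC 2 in percent on the horizontal axis, that of UC 4 and UC 5 on the vertical axis and the level of UC 3 as colour; the line marks equal levels. Most points lie below the line, and a pair of tiles on chromosome 4 lies far above it.

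A few tiles, chosen after their values were seen, departed furthest from equal gain. At chr4:718801-719000 the levels were 2.61%, 2.81% and 1.42% in controls 1 to 3 and 12.8%, 11.6%, 41.1%, 83.8% and 82.4% in UCs 1 to 5. The nearby tile chr4:720601-720800 had 1.37%, 0.485% and 1.18% in controls 1 to 3 and 11.6%, 19.2%, 51.4%, 71.7% and 70.9% in UCs 1 to 5. At both, UC 4 and UC 5 were at 70.9% to 83.8% and UC 3 lay between the pairs. The opposite was seen at chr3:170552001-170552200, with 2.79%, 4.22% and 1.57% in controls 1 to 3 and 71.7%, 68.1%, 34.4%, 19.6% and 22.8% in UCs 1 to 5.

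The tiles with a gene name and the highest level in the lowest UC were those at Septin9, Disp3, Tacc2, Lrrc43, Ptprn2, Pcdhac1, Unc5d, Otud7a, Tmem132d and Trank1. Ptprn2, Pcdhac1, Unc5d, Tmem132d and Trank1 are also on the list of the study, which was chosen on these samples and is no independent evidence. The tile at Septin9, and 1 of the tiles at Marchf11 described below, overlap regions of that list whose names are stored there as dates. The control and UC levels did not overlap in any of the 10 tiles, as in all 392.

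Septin9 encodes a GTP-binding protein of the septin cytoskeleton, and its human counterpart is a methylation marker of colorectal cancer in blood. Its tile (chr10:106240801-106241000, rn6, centred 301 bases upstream of a placed start) had 0.379%, 0.306% and 0.477% in controls 1 to 3 and 78.1%, 77.4%, 42.6%, 55.9% and 50.2% in UCs 1 to 5. All 3 controls were under 1%, and UC 1 and UC 2 were far above UC 3. The group values were 0.387% ± 0.0858 in controls (SD, n = 3) and 60.8% ± 16.1 in UCs (SD, n = 5). A second member on the other side of that start, chr10:106241601-106241800, chosen after its values were seen, had 1.69%, 4.86% and 4.89% in controls 1 to 3 and 79.4%, 79.6%, 43.4%, 61.1% and 60.5% in UCs 1 to 5. Septin9 had 3 members within 1 kb of a placed start. The remaining member had the largest difference of the 3, 62.5 points, with controls at 1.39% to 3.42% and UCs at 37.96% to 77.2%.

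Disp3 encodes a sterol-sensing membrane protein of the dispatched family. Its tile (chr5:165099801-165100000, centred 265 bases upstream) had 7.41%, 2.96% and 1.85% in controls 1 to 3 and 47.3%, 55.8%, 35.7%, 31.3% and 31.4% in UCs 1 to 5. Control 1 was the highest control, and the lowest UC was UC 4. When the levels of the CpGs were averaged instead of their calls, the difference between the group means was 25.3 in place of 36.2 points.

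Ptprn2 encodes a phosphatase-like membrane protein of secretory vesicles. The tile at its start (chr6:144384601-144384800) had 4.65%, 1.38% and 1.54% in controls 1 to 3 and 51.8%, 39.4%, 23.1%, 47.99% and 37.8% in UCs 1 to 5. UC 3 was the lowest UC here, and the tile next to it downstream was a member as well. Otud7a encodes a deubiquitinase, and its tile (chr1:124311801-124312000, centred 92 bases downstream of the start) had 1.86%, 1.97% and 2.41% in controls 1 to 3 and 44.5%, 36.7%, 21.5%, 30% and 25% in UCs 1 to 5. The spread among UCs was again from UC 3 to UC 1, with 2.08% ± 0.291 in controls (SD, n = 3) and 31.6% ± 9.24 in UCs (SD, n = 5).

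Tacc2 encodes a coiled-coil protein of the centrosome. At its start (chr1:201256601-201256800) the levels were 1.61%, 2.17% and 2.05% in controls 1 to 3 and 75%, 45.7%, 32.2%, 29.3% and 24.5% in UCs 1 to 5. UC 1 stood well above UC 2 here, unlike in most tiles. Lrrc43 encodes a leucine-rich repeat protein, and its tile (chr12:38524601-38524800) had 4.21%, 4.76% and 3.23% in controls 1 to 3 and 42.2%, 35.2%, 23.2%, 37.1% and 27.5% in UCs 1 to 5. This tile had 56 to 273 calls per sample, the thinnest of the 10.

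Trank1 encodes a protein with tetratricopeptide and ankyrin repeats. Its tile (chr8:119566201-119566400) had 5.75%, 4.01% and 3.71% in controls 1 to 3 and 54.2%, 50.2%, 20.5%, 43.7% and 40.8% in UCs 1 to 5. The tile of Tmem132d, which encodes a membrane protein, lies at chr12:31934001-31934200 and had 5.54%, 2.71% and 2.69% in controls 1 to 3 and 46.1%, 44.6%, 21.3%, 37.9% and 39.2% in UCs 1 to 5. UC 3 was the lowest UC in both, and the other UCs were at 37.9% or more.

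Pcdhac1 belongs to the clustered protocadherins, cell adhesion proteins of neurons. Its tile (chr18:30114601-30114800) had 3.97%, 3.58% and 3.28% in controls 1 to 3 and 49.6%, 48.3%, 23%, 23.8% and 23.3% in UCs 1 to 5. UCs 3, 4 and 5 were alike, and UC 1 and UC 2 were higher. Unc5d encodes a netrin receptor of axon guidance, and its tile (chr16:67047801-67048000) had 5.76%, 2.13% and 6.43% in controls 1 to 3 and 59%, 58.1%, 22.1%, 28.6% and 29.1% in UCs 1 to 5, again with UC 1 and UC 2 apart from the other UCs.

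**Figure D3:**
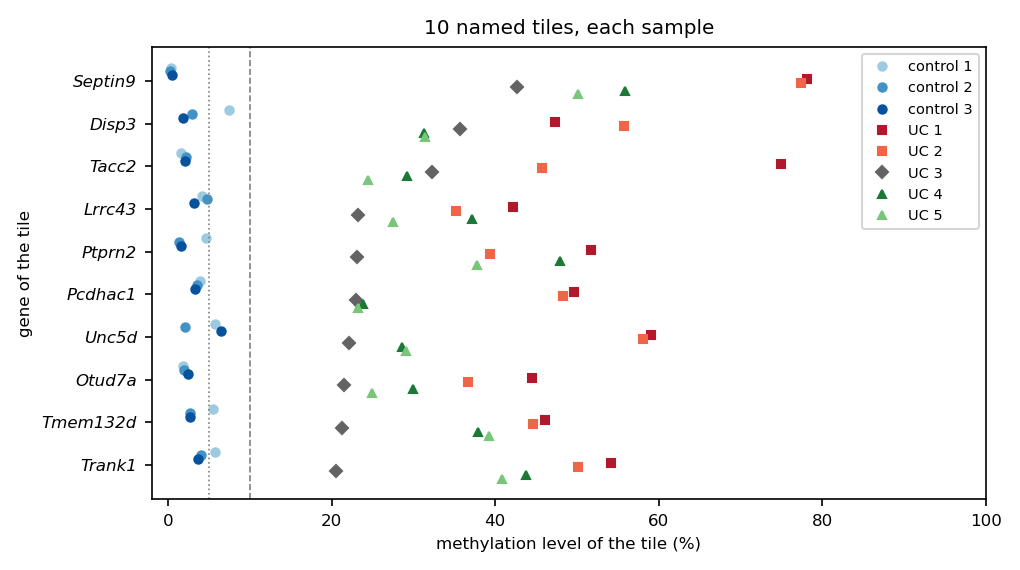
Methylation level in percent (horizontal axis) of the 10 named tiles (rows, by gene) in each of the 3 controls and 5 UCs. The dotted and dashed lines mark 5% and 10%; no control exceeds 7.41% and no UC is below 20.5%.

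Most tiles had no adjacent member, while 119 of the 392 did. A neighbour that missed the rule could still hold a gain, as described below. The 392 tiles formed 323 stretches, of which 273 were single tiles, 35 held 2 tiles, 12 held 3, 2 held 4 and 1 held 5. The longest lay at Trank1, followed by Otud7a and Marchf11, which encodes a membrane-bound RING-type ubiquitin ligase.

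At Trank1 the 5 tiles began at the start of the gene and ran into it. Counting only the 47 CpGs with 10 or more reads in each sample, the tiles had mean levels of 1.23%, 1.27% and 0.740% in controls 1 to 3 and 43.3%, 41.4%, 13.3%, 33.9% and 29.04% in UCs 1 to 5. From 121 to 56 bases upstream of the start, 8 CpGs outside the member tiles were already methylated in the controls, at 9.59%, 19.2% and 5.68%. In the UCs these upstream CpGs were at 74.6%, 67.9%, 38.8%, 54.7% and 59.5%, higher than those of the member tiles in each UC.

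Otud7a had 61 such CpGs from 320 bases upstream to 371 downstream of its start. Their means were 1.81%, 1.77% and 1.21% in the controls and 28.9%, 27.7%, 15.5%, 20.5% and 18.1% in the UCs. Single CpGs differed widely within the stretch. Farther into the gene, 4 CpGs had 26.1%, 22.6% and 28.1% in the controls and 58.1%, 56.9%, 35.1%, 65.4% and 67.3% in the UCs.

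The 68 CpGs of the Marchf11 stretch ran from 1 base upstream to 656 bases downstream. They had means of 4.27%, 2.03% and 1.87% in the controls and 43.8%, 42.1%, 15.4%, 20.3% and 19.2% in the UCs. UC 1 and UC 2 were thus more than 20 points above each other UC here, whereas at Otud7a the 5 UCs lay closer together.

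**Figure D4:**
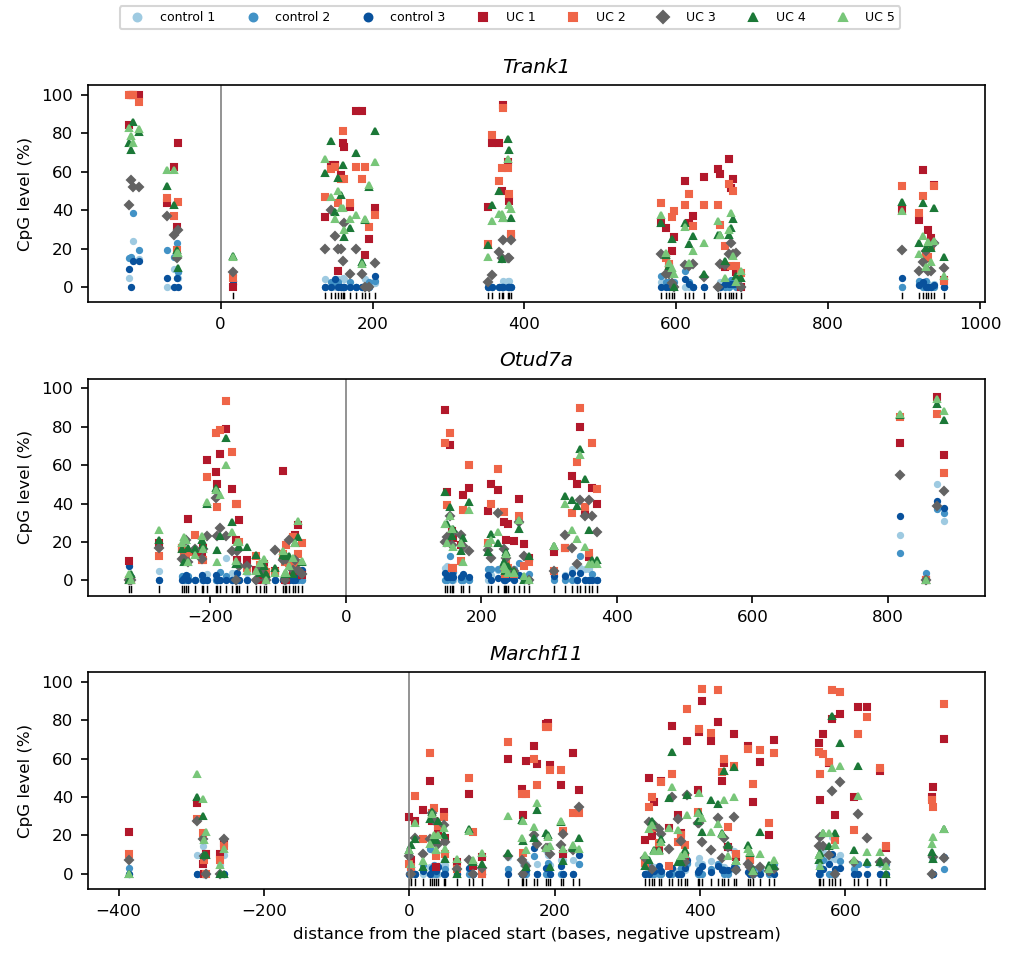
Level in percent (vertical axis) of single CpGs with 10 or more reads in each sample, against the distance in bases from the placed start of Trank1, Otud7a and Marchf11 (vertical line). Colours and symbols are the samples and black ticks mark CpGs in member tiles. Controls are low on average within the tiles, though single CpGs at Marchf11 reach up to 19.2% in control 1. The CpGs upstream of Trank1 are on average higher in every UC than those within its tiles.

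Within a tile, the CpGs were uneven. Of the CpGs with at least 10 reads, 74.6%, 71.6%, 59.5%, 69.0% and 68.0% were at 10% or more in UCs 1 to 5, and 7.19%, 4.59% and 3.43% in controls 1 to 3. The median SD between CpGs of 1 tile was 20.2, 21.7, 11.5, 16.1 and 15.7 points in UCs 1 to 5, larger than the SD between tile means of 15.3, 15.04, 6.83, 11.2 and 11.01 points. The part of counting error in this spread was not tested. In UC 1 the median tile had its lowest CpG at 2.09% and its highest at 69.6%.

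The gain reached beyond the tiles. CpGs 100 to 300 bases from the centre of a member tile, outside all member tiles, had a mean level of 3.71% ± 0.594 in controls (SD, n = 3) and 19.2% ± 4.74 in UCs (SD, n = 5). Around the 24171 dense tiles under 5% in every sample, the same distance had 1.32% ± 0.109 and 1.90% ± 0.114. At 1000 to 1500 bases, the values around the members were 11.9% ± 0.972 in controls and 21.6% ± 2.76 in UCs.

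The wider surroundings of the tiles were less methylated in the controls than those of the tiles that stayed low. At 3000 to 5000 bases, controls had 27.5% ± 0.574 around the members and 52.5% ± 0.541 around the other tiles. UCs had 33.2% ± 2.93 and 52.6% ± 1.72. Near the tiles these flanks were chosen together with them, and no test is given.

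**Figure D5:**
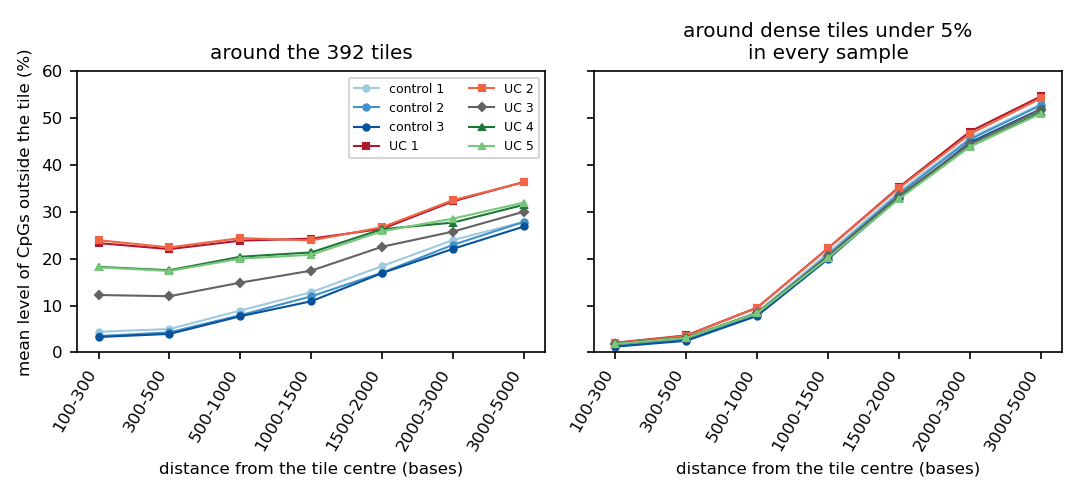
Mean level in percent (vertical axis) of CpGs outside the tiles, by distance in bases from the tile centre (horizontal axis), around the 392 tiles (left) and around the dense tiles under 5% in every sample (right); each line is 1 sample. On the left the UCs lie above the controls at every distance, from 12.2% to 23.9% against 3.28% to 4.39% nearest the tile, and on the right the 8 lines nearly coincide.

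Of the tiles next to a member that were no members themselves, 453 had at least 3 CpGs in every sample. Their median level was 2.33% over the control means and 15.97% over the UC means. Every UC lay above every control in 80.8% of them, against 6.01% of the 12568 tiles next to dense tiles that were low in every sample. Both sets lie beside tiles chosen by their levels, so the direction of this contrast follows in part from the choice, and it was not tested.

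A minority of the tiles lay at a placed gene start. Of the 392 tiles, 117 (29.8%) had their centre within 1 kb of a placed start, against 58.1% of the dense tiles under 5% in every sample. A placed promoter overlapped 49 tiles and a region listed by the study with a readable gene name 44, which left 68 tiles with a gene name. Of 232 listed genes on these chromosomes, 40 (17.2%) had a member tile in their region. Only 135 of the 232 lay on a dense tile with a control mean under 5%, and the 40 are 29.6% of these, while 11.2% of the tiles lay in a listed region with a readable name. Placed starts cover only part of the genes, so a tile far from one may still lie in a promoter.

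The tile with the largest gain had no name. It lies at chr12:51249601-51249800, between the placed starts of Tpst2 and Pitpnb, and was chosen after its values were seen. Its levels were 5.69%, 4.63% and 3.88% in controls 1 to 3 and 86.98%, 83.2%, 48.1%, 68.9% and 75.4% in UCs 1 to 5. It was also the tile with the highest lowest UC of all 392.

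The tiles were spread over all 20 chromosomes. Their share of the dense tiles with a control mean under 5% was from 0.666% on chromosome 17 to 2.81% on chromosome 18. By the lowest number of CpGs in a sample, the share was 1.45% in tiles of 10 to 12 CpGs, 1.69% at 13 to 15, 1.11% at 16 to 18, 1.34% at 19 to 22, 1.11% at 23 to 28 and 0.99% at 29 or more. It showed no steady course with CpG number.

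Promoters on member tiles resembled other promoters in base content. The 43 placed promoters that overlap a member had a median of 28 CpGs in 300 bases and 68.7% G and C, against 26 CpGs and 65.7% in 5729 placed promoters on dense tiles under 5% in every sample. The ratio of observed to expected CpGs was 0.828 and 0.857. The letters GGGCGG of the GC box, searched on both strands, were in 30 of the 43 promoters (69.8%), in 77.2% of the 5729 and in 33.1% of all 33469 RefSeq promoters. CCAAT was in 13 (30.2%), against 35.4% and 37.5%. TATAAA was in 0, against 3.79% and 14.2%.

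Genes with a member tile within 1 kb of a placed start numbered 78 of the 6313 placed genes that had a dense tile with a control mean under 5% there (1.24%). The best difference of a gene is the largest difference between UC mean and control mean over such tiles. Its median over the 6313 genes was 0.185 points. The counts of placed genes in the lists below likewise cover only genes with such a tile.

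In a list of homeobox, paired box, forkhead and other transcription factors, which set cell identity in the embryo, 3 of 70 placed genes (4.29%) had a member, and the median best difference was 4.68 points. The list does not hold every such factor: En1, Pdx1, Dmrt2 and Sim1, chosen after their values were seen, are placed developmental factors outside it, and each had 1 member. Foxd3, a forkhead factor of the neural crest, had 3 adjacent tiles. At the first (chr5:118347801-118348000) the levels were 6.37%, 4.47% and 3.48% in controls 1 to 3 and 43.01%, 45.95%, 12.96%, 41.8% and 37.5% in UCs 1 to 5. In the third (chr5:118348201-118348400) UC 3 was as high as UC 1 and UC 2, with 0.867%, 0.984% and 1.02% in controls 1 to 3 and 26.8%, 25.6%, 26.7%, 15.02% and 11.4% in UCs 1 to 5.

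Tlx3, a homeobox factor of the nervous system, had 2 separate tiles with opposite orders of the UCs. The tile at the start (chr10:18131401-18131600) had 4.42%, 5.33% and 4.15% in controls 1 to 3 and 56.2%, 48.1%, 16.1%, 24.7% and 22.2% in UCs 1 to 5. The upstream tile (chr10:18132201-18132400) had 4.13%, 2.07% and 1.85% in controls 1 to 3 and 11.4%, 12.2%, 14.02%, 20.2% and 20.9% in UCs 1 to 5. UC 1 and UC 2 were highest in the first and lowest in the second.

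Lhx4, a LIM-homeobox factor of the pituitary, had a modest gain at chr13:73391401-73391600, with 3.24%, 1.52% and 1.84% in controls 1 to 3 and 14.6%, 11.6%, 12.5%, 15.4% and 18.1% in UCs 1 to 5. The 5 UCs lay closer together there than at Foxd3.

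In the list of ion channel genes, 5 of 41 placed genes (12.2%) had a member, with a median best difference of 5.80 points. Cacna1b encodes the pore of N-type calcium channels, and its tile at the start (chr3:1924801-1925000) had 0.495%, 1.32% and 1.11% in controls 1 to 3 and 17.98%, 19.2%, 21.6%, 25.8% and 23.2% in UCs 1 to 5. UC 1 was the lowest UC there. In the adjacent member upstream (chr3:1925001-1925200) UC 3 was the lowest at 12.3%, and UC 1 was at 21.5%. Cacna2d1 encodes an auxiliary subunit of calcium channels and had 2 members. The tile at chr4:16130401-16130600 had 3.10%, 1.78% and 1.998% in controls 1 to 3 and 53.4%, 55.6%, 11.4%, 26.9% and 20.3% in UCs 1 to 5, with UC 1 and UC 2 far above the other UCs. The other (chr4:16131001-16131200) had 52.6%, 49.7%, 13.1%, 30.2% and 27.8% in UCs 1 to 5.

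Kcng3, a modifier subunit of voltage-gated potassium channels, had its highest level in UC 3. Its tile (chr6:6842201-6842400) had 2.95%, 3.02% and 3.10% in controls 1 to 3 and 30.7%, 27.6%, 32.7%, 14.7% and 12.01% in UCs 1 to 5. Asic2 encodes an acid-sensing sodium channel, and its tile (chr10:68517401-68517600) had 3.203%, 0.474% and 1.65% in controls 1 to 3 and 31.2%, 28.4%, 12.4%, 21.5% and 23.2% in UCs 1 to 5. Gabra5, a subunit of receptors for the transmitter GABA, had the smallest gain of the 5 genes, with 2.62%, 2.53% and 0.967% in controls 1 to 3 and 11.7%, 11.9%, 15.5%, 13.5% and 13.2% in UCs 1 to 5 at chr1:112947001-112947200.

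The potassium channel gene Kcnk9, named through the list of the study, had 4.82%, 6.17% and 2.27% in controls 1 to 3 and 35%, 34.8%, 16.7%, 11.4% and 14.6% in UCs 1 to 5 at chr7:113937401-113937600. The other lists had few placed genes. Among genes known from human bladder cancer methylation, 1 of 10 had a member, Hspa2, a heat shock protein of the testis, with 1.77%, 2.22% and 1.06% in controls 1 to 3 and 26.1%, 25.8%, 12.7%, 29.5% and 25.6% in UCs 1 to 5 at chr6:99434001-99434200. UC 3 was the only UC there under 25%.

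Of 7 placed protocadherin and cadherin genes, 1 had a member, Cdh6, a cadherin of the kidney. Its tile (chr2:63246401-63246600) had 1.88%, 1.08% and 1.42% in controls 1 to 3 and 32.97%, 30.3%, 12.6%, 33.5% and 33.9% in UCs 1 to 5. Pcdhac1, described above, was named through the list of the study and is outside this count. None of the 3 Wnt antagonist genes Sfrp2, Sfrp5 and Wif1 did, and their median best difference was 3.41 points. None of 6 broadly expressed genes did, with a median best difference of 0.155 points.

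Of the cell type markers, Coro1a of immune cells, Kdr of endothelium and Grhl3 of urothelium had a placed start with a dense tile, and none had a member. Their best differences were 1.31, 3.02 and -0.268 points. No marker of smooth muscle or fibroblasts was placed by CpG spacing, so placed markers could not check the labelled tissue. The paper counts Des, a smooth muscle marker in the list used here, among the genes hypermethylated and downregulated in its UCs. The part of a different mixture of cells in the gains was not tested.

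For 3 measures other than the methylation level, the groups were compared by an exact permutation test. In it the 8 samples can be divided in 56 ways and p cannot go below 0.0179. Calls still enter the choice of tiles, through the CpG minimum and as the denominator of the level. Member tiles took 0.469%, 0.489% and 0.539% of all calls in controls 1 to 3 and 0.433%, 0.386%, 0.476%, 0.423% and 0.435% in UCs 1 to 5. The means were 0.499% ± 0.0359 in controls (SD, n = 3) and 0.430% ± 0.0320 in UCs (SD, n = 5), a difference that did not pass the exact permutation test (two-sided p = 0.0714, 0.161 adjusted over the 3 measures).

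Calls on member tiles per 100 calls on dense tiles under 5% in every sample were 1.88 ± 0.0510 in controls (SD, n = 3) and 1.73 ± 0.106 in UCs (SD, n = 5). UC 3, at 1.91, lay within the range of the controls, and the other UCs lay below it. The difference did not pass (exact permutation test, two-sided p = 0.107, adjusted 0.161). The share of G among opposite-strand G and A calls, which drops where the C of a CpG is replaced by T in the DNA itself, was 99.49% to 99.67% in controls and 99.55% to 99.62% in UCs. The group means differed by less than 1 SD of the controls, and a two-sided exact permutation test gave p = 0.821 (adjusted 0.821).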

How the data were processed

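The study isolated genomic DNA from 3 control bladders and 5 UCs, digested it with restriction enzymes and made RRBS libraries. The authors used RRBSMAP for alignment to rn6, and discarded reads that aligned to several places or that barcode and position marked as PCR duplicates. The deposited counts, given per CpG over both strands, are those of C, of C plus T, and, opposite, of G and of G plus A. The deposited effective count of C plus T is an expected count, corrected for the opposite-strand bases. The ratio that the authors deposited is a fraction from 0 to 1 and was not used. Depth was 14 to 18 reads at the median CpG of a sample.

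Counts were summed over 200-base tiles without further normalization, and the rule, stated at the opening of the results, was applied to the sums. The members, the gene lists and the alternatives were chosen with earlier results of these data known. The rule was tested on simulated calls at the real depths of 28720 tiles, with 50 tiles raised to each of 4 levels in the UCs. With counting error only it found 68.0% of tiles raised to 12% and 100.0% of those raised to 15%; with variation between samples added it found 6.00% and 36.0%, 88.0% at 20% and 100.0% at 30%. It made 0 false choices, but the tiles not raised were given their control level in all 8 samples. The simulated samples also varied independently, unlike the similar pairs of UCs. The 0 therefore does not measure how often the rule errs in the data. The size of the variation added between samples was fixed and not estimated from these data, so the shares found depend on that choice.

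No genome or annotation of rn6 was used here. RefSeq promoters of GRCr8 were placed on the CpG positions of the same chromosome where at least 8 CpGs and 90% of the CpGs listed there coincided, in either orientation and 3 CpGs ahead of the next place. Of 15900 promoters with enough CpGs, 9114 were placed, against 44 with their CpG gaps shuffled. Of 148 placed genes on the list of the study, 144 lay within 1 kb of the listed region; only positions and names were taken from that list. The tiles named are the 10 with a gene name and the highest lowest UC (1 per stretch), those next to the thresholds, the 3 longest stretches and those on listed genes; others are said to be chosen after their values were seen. A result on 1 further listed gene is not reported here.

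Group values are mean ± SD of samples. The p-values of the 3 exact permutation tests were corrected after Benjamini and Hochberg. Same-numbered samples of the groups did not pair: the correlations of their deviations were 0.0925, -0.0264 and 0.107. Python 3.11.15, numpy 2.4.6, pandas 2.3.3, scipy 1.17.1, statsmodels 0.14.6 and matplotlib 3.10.9 were used. The alternatives were other CpG minima, 10 reads per CpG, means of CpG levels, the effective count, a shifted grid, other thresholds, chromosome X, a replicate block and leaving out each sample; those with 1 UC of each similar pair were added after the data had been seen.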

Additional observations from a re-analysis of the deposited data

Results flagged for a closer look

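Chromosome X, which the rule leaves out, held 10 tiles that met the same rule among 507 dense tiles with a control mean under 5%. At chrX:111388801-111389000 the levels were 3.302%, 4.27% and 1.35% in controls 1 to 3 and 74.8%, 73.2%, 12.8%, 56.2% and 50.7% in UCs 1 to 5. At chrX:77570601-77570800 they were 0.00%, 1.18% and 0.513% in the controls and 15.6%, 19.6%, 15.4%, 37.4% and 46.1% in the UCs, with UC 4 and UC 5 highest. The Dixon criterion was applied to 14 groups of 5 UC values, over the 10 named tiles, the median over the members and the 3 measures tested. It set no sample apart. It marks about 1 in 20 groups of independent values by chance. Most of these groups hold levels that the rule used, and the UCs include similar pairs, so nothing is concluded from the absence of marks.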

How the results depend on the processing

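The number of tiles depended most on the thresholds. It was 723 with a minimum of 5 CpGs and 201 with 15, 114 with a control mean under 2%, and 50 or 1325 with every UC at 20% or 5%, against 392. With every UC at 20% the median difference was 33.6 points, and with 5% it was 12.4 points, by construction. With 1 sample left out in turn the number was from 371 to 778, the highest without UC 3, and the median difference from 18.01 to 20.4 points. A minimum of 10 reads per CpG gave 282 tiles, 278 of them among the 392, and averaged CpG levels gave 400, of which 325 were. The effective count gave 394, the shifted grid 376, every control under 5% gave 293 and chromosome X included 402. When every other UC had to reach 20%, the share of tiles reaching 10% in the UC left out was 100.0% for UCs 1, 2, 4 and 5, 77.6% for UC 3, 91.5% for UC 1 with UC 2 and 84.3% for UC 4 with UC 5. With only 50 to 170 tiles these shares rest on fewer tiles.

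The 3 measures other than the level did not pass their test in any alternative. Among alternatives with all samples, the smallest unadjusted p of the exact permutation test was 0.0357 (adjusted 0.107). It was for the share of all calls with 15 CpGs. The difference in the share of all calls was from -0.0838 to -0.0489 points without 1 sample, and that relative to unmethylated dense tiles from -0.202 to -0.129. The difference in the opposite-strand G share was from -0.0594 to 0.0343 points, and it changed its sign without control 3. With the replicate block, the mean of the 3 same-numbered differences, the 3 measures were -0.0676, -0.146 and -0.0215 (exact sign-flip test, p = 0.25, 0.5 and 0.75), a test that cannot go below 0.25. Of the 10 named tiles, only Disp3 moved by more than its spread between UCs, and Lrrc43 had no value with 10 reads per CpG. Names taken from the list of the study alone were given to 44 tiles in place of 68. The shallowest tile had 33 calls in 1 sample.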

Other observations

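Other genes with a member at their start, chosen after their values were seen, include genes of neural signalling. Drd2 and Drd5 encode dopamine receptors, and Gad2 an enzyme that makes GABA. The Drd2 tile had 5.16%, 0.976% and 1.81% in controls 1 to 3 and 23.5%, 27.3%, 21.1%, 16.7% and 22.2% in UCs 1 to 5. The Gad2 tile had 2.68%, 1.32% and 0.478% in controls 1 to 3 and 30.2%, 21.6%, 15.01%, 23.97% and 20.7% in UCs 1 to 5. At Drd5 the levels were lower, with 3.85%, 2.99% and 2.77% in controls 1 to 3 and 19.1%, 18.3%, 13.2%, 12.5% and 14.1% in UCs 1 to 5. At Drd2 and Drd5 the UCs were closer together than at the 10 named tiles.

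Fstl1 encodes a secreted glycoprotein related to follistatin, and Aldh1b1 a mitochondrial aldehyde dehydrogenase. The Fstl1 tile had 1.96%, 0.855% and 1.46% in controls 1 to 3 and 42.7%, 32.7%, 19.8%, 36.5% and 35.97% in UCs 1 to 5. The Aldh1b1 tile had 2.73%, 2.98% and 3.07% in controls 1 to 3 and 47.9%, 49.04%, 17.99%, 25.8% and 25.2% in UCs 1 to 5. UC 3 was the lowest UC in both.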
